A study of Drosophila melanogaster with 9 samples.

Results

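The 61 genes described here are those that the authors' deposited tables class as enzymes and give a peak of expression in the white prepupa, the 12 h prepupa or the 1 d pupa, among the 904 genes in those tables. The function was read from the first table that lists a gene, and the stage from the first entry that is not blank. Of 65 such genes, 4 were left out by name (verm, kkv, e and Cht10). In all, 321 of the 904 genes are classed as enzymes. All samples were retinas with optic lobes dissected from Drosophila melanogaster pupae 48 h after puparium formation (APF) and aged at 25 °C. All 3 groups carried the eye driver lGMR-GAL4, and each had 3 biological replicates. The RNAi group (lGMR>Blimp-1 RNAi) carried a Blimp-1 RNAi construct under that driver, the overexpression group (lGMR>UAS Blimp-1) a UAS Blimp-1 transgene, and the control group (lGMR-GAL4/+) the driver with no UAS insert in its label. The same 3 control libraries serve both comparisons, so the results of the comparisons are not independent. The driver acts in the developing eye, while each sample also holds optic lobe tissue, and neither the sex of the animals nor whether they were pooled is stated in the labels.

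Blimp-1 is a zinc finger repressor induced by the moulting hormone ecdysone, and it is known for timing the switch between gene programmes around puparium formation. In Drosophila the pulses of ecdysone at the start of metamorphosis change gene expression as larval tissues break down and adult tissues form. Whether the genes described here respond to ecdysone was not tested. Clip-domain serine proteases of the blood are made as zymogens that cut each other in order, and they end in activation of the Toll ligand Spätzle or of the melanin-forming phenoloxidases. The samples were 48 h old, later than the deposited peak of every gene described here.

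The class name covers more than catalysts. Of the 61 genes, 6 encode inhibitors or binding proteins that are not known as enzymes: Timp (a metalloprotease inhibitor), Cys (a cystatin), the serpins Spn28Dc and Spn43Aa, PGRP-LF (a peptidoglycan recognition protein) and CG17278 (now peg, a Kazal-type inhibitor). The RhoGAP gene cv-c and the F-box genes Skp2 and Fbw5 are also regulators of other proteins, and 9 genes are given no role here. By stage, 16 genes had the entry white prepupa, 28 the entry 12 h prepupa and 12 the entry 1 d pupa, and 5 had a range within these stages. Of the 61 genes, 24 were listed in RNAi, 49 in overexpression and 12 in both. A gene listed in 1 comparison alone has no value in the other altered genotype.

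Values are normalized counts, that is read counts divided by 1 size factor per library, and a fold is the ratio of 2 group means. A gene is listed only where the authors' test gave an adjusted p under 0.05 and a log2 fold change beyond 1 in either direction, so every gene here had passed that test in the comparison that lists it. A log2 difference is given as estimate ± standard error from limma on log2(normalized count + 1), with positive values higher in the altered genotype. Whole reads, recovered from the normalized counts, numbered 16553 to 20705 per RNAi library over 24 genes, 70710 to 93295 per overexpression library over 49 genes and 29517 to 51741 per control library over 61 genes for the set. In the deposited values, groups did not overlap for 24 of 24 genes in RNAi (100.0% of all listed genes) and for 49 of 49 in overexpression (99.7% of all listed genes). Limma called 100.0% of all listed genes in each comparison, since the tables hold only genes the authors had called. The tissue is a mixture, so fewer cells of a type and less RNA per cell cannot be told apart in any value below. Of 7 photoreceptor markers, Arr2 and boss were listed as higher in overexpression. Their sum was 56789 to 69918 normalized counts in overexpression libraries against 7113 to 7408 in control libraries. In RNAi chp was listed as lower, at 8467 to 17427 against 25179 to 28494 in control libraries. Of 5 cone and pigment cell markers, w was listed as higher in overexpression and none was listed in RNAi. None of the listed markers was at 0 in a group.

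In RNAi, 18 of the 24 listed genes (75.0%) were higher and 6 lower, while 49.3% of all listed genes were higher and 50.7% lower. The other listed enzymes were higher in 49 of 106 cases (46.2%). Within the set, 4 of 4 genes with a white prepupa entry were higher, as were 11 of 14 with a 12 h prepupa entry and 3 of 6 with a 1 d pupa entry. The count depends on how a stage is found: 6 of the 24 genes have a blank stage in the RNAi tables, and their stage comes from the overexpression tables. These are cv-c, fj, Skp2 and CAH2 (lower) and CG14688 and CG10924 (higher), and without them 16 genes were higher and 2 lower. In overexpression, 40 of the 49 listed genes (81.6%) were higher and 9 lower, not far from the 72.4% higher and 27.6% lower of all listed genes and to the other listed enzymes, of which 156 of 203 (76.8%) were higher. Enzymes with a day 3 or 4 entry were higher in 54 of 63 cases (85.7%) in overexpression and in 13 of 22 (59.1%) in RNAi. By stage, 12 of 14 white prepupa genes, 18 of 22 with a 12 h prepupa entry, 5 of 8 with a 1 d pupa entry and 5 of 5 with a range were higher in overexpression.

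**Figure D1:**
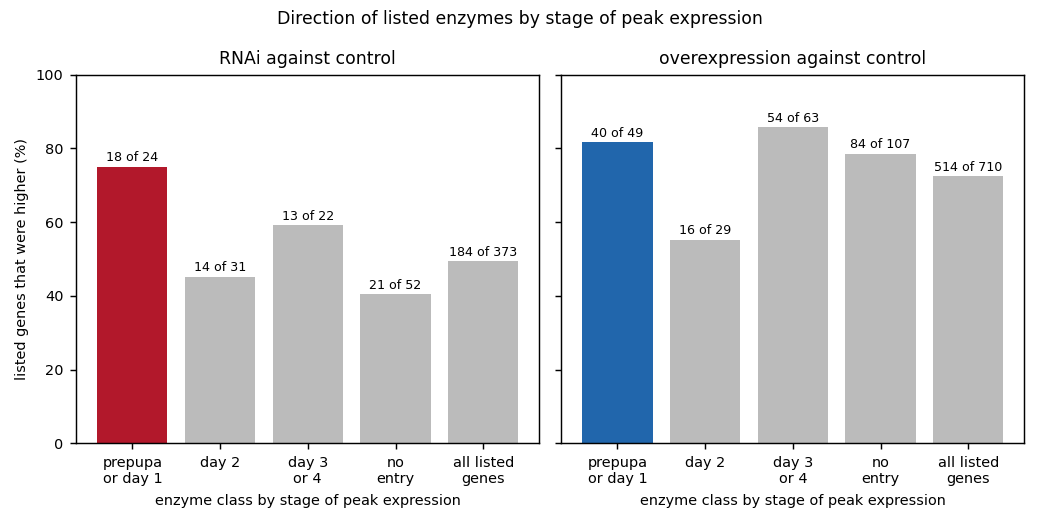
Share of listed enzymes that were higher than control, in percent, by the deposited stage of peak expression, for RNAi and for overexpression. Numbers above the bars are genes higher of genes listed, and the last bar is all listed genes (49.3% in RNAi and 72.4% in overexpression). Enzymes with an early entry were higher in 18 of 24 cases in RNAi and 40 of 49 in overexpression, against 14 of 31 and 16 of 29 for enzymes with a day 2 entry and 13 of 22 and 54 of 63 for enzymes with a day 3 or 4 entry.

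The sizes of the changes were no larger than those of other listed genes. The median fold of the 18 higher genes in RNAi was 3.68, against 3.79 over all 184 higher genes, and that of the 6 lower genes was 2.62, against 3.35 over 189. In overexpression the median was 3.77 over the 40 higher genes, against 4.21 over 514, and 2.64 over the 9 lower genes, against 3.17 over 196. Folds ran up to 26.3 for Prat2 in RNAi and 63.0 for psh in overexpression. Per kilobase of exon, mean control levels of the 60 genes with an annotated length had a median of 80.8 normalized counts, with GstT4 (2375) and CG6707 (2073) at the top and psh (4.57) and Prat2 (1.24) near the bottom above CG31683, which had no control read.

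**Figure D2:**
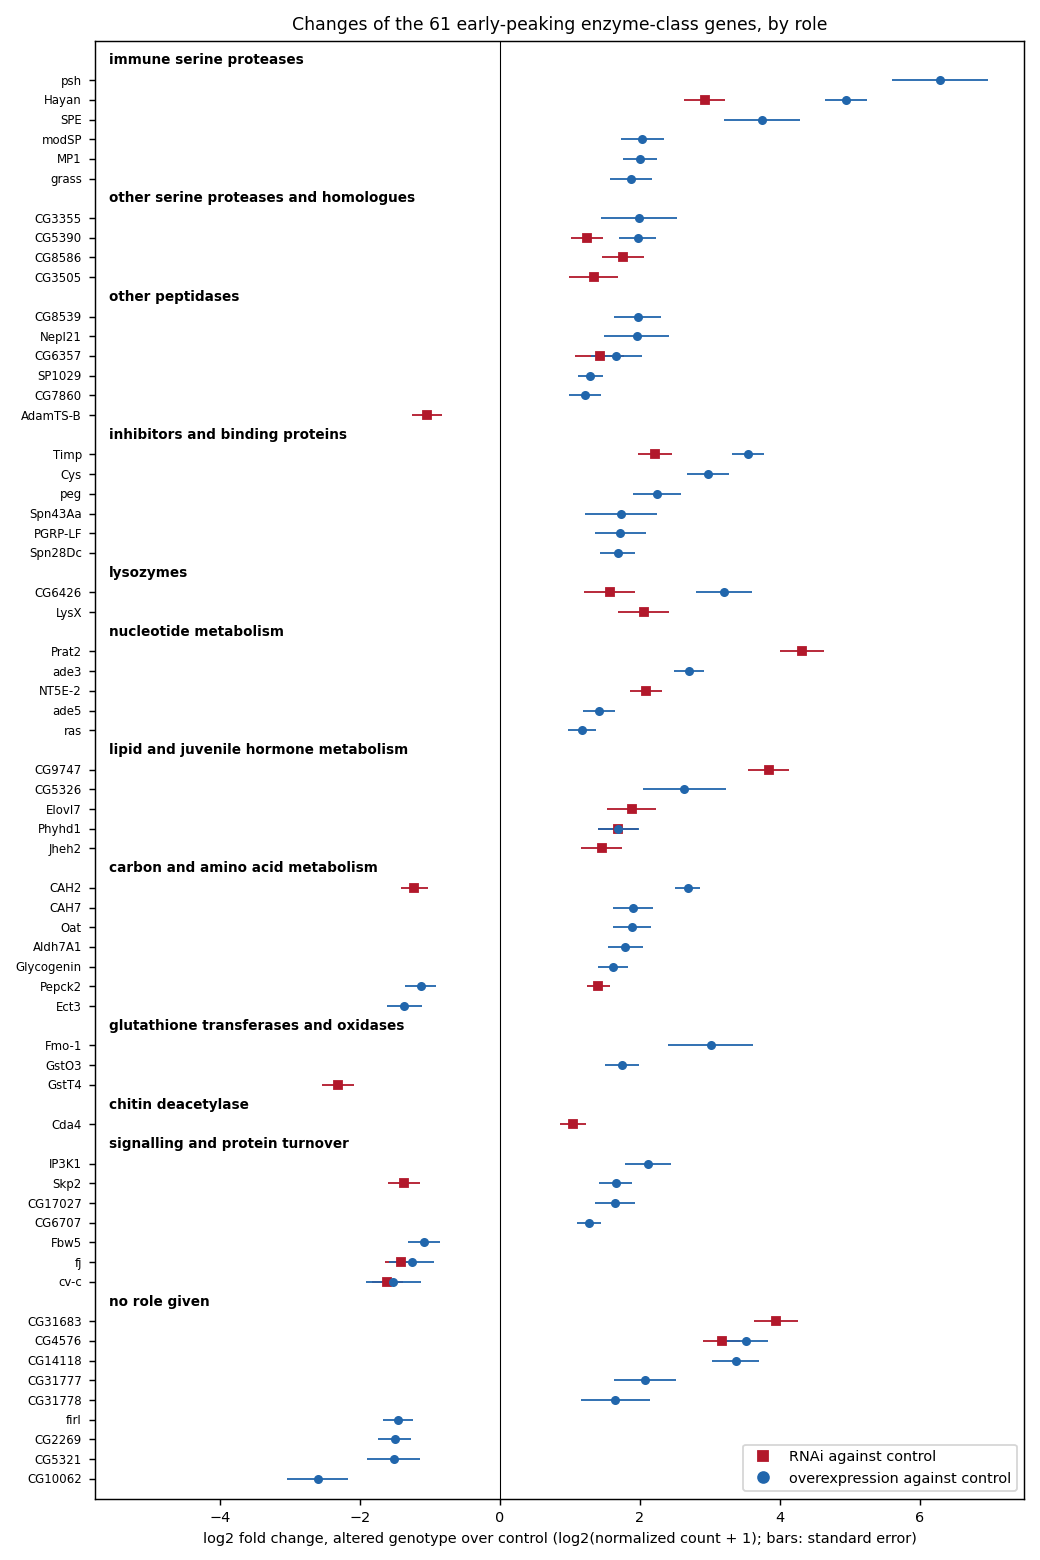
Log2 fold change of each listed gene over control, by role group, from limma on log2(normalized count + 1); red squares are RNAi, blue circles overexpression, and bars are standard errors over 3 against 3 libraries. The 6 immune serine proteases and the 6 inhibitors and binding proteins are all right of 0 in overexpression, while the signalling and turnover genes lie on both sides; the point of CG31683, with no control read, depends on the added 1, and genes with a current name are shown by it.

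Serine proteases of the Toll and melanization cascades were higher in overexpression in 6 of 6 cases, between 3.60- and 63.0-fold, where 72.4% of all listed genes were higher. All 6 genes are listed there, and Hayan alone of the 6 is also listed in RNAi. psh (dm6 X 18484487 to 18486921) encodes persephone, a clip-domain protease that starts the Toll cascade when microbial proteases cut it. Its 3 overexpression libraries held 505, 514 and 401 normalized counts, against 0.670, 14.4 and 7.48 in control. All overexpression libraries were far above all control libraries, and control replicate 1 held a single read. The fold was 63.0, with a log2 difference of 6.29 ± 0.69, and it was 116-fold without control replicate 2. Hayan (dm6 X 18479983 to 18483772), encoding a related protease that activates phenoloxidase after wounding, held 488, 588 and 424 normalized counts in overexpression and 149, 126 and 95.2 in RNAi, against 12.8, 13.4 and 19.96 in control. The 3 groups were separate and in that order, with Hayan 32.5-fold higher in overexpression and 8.02-fold higher in RNAi. The authors' deposited table gives it an adjusted p of 1.13e-45 in overexpression and 1.09e-12 in RNAi.

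The other 4 members of the cascade were listed in overexpression only. SPE, the protease that cuts pro-Spätzle, held 142, 142 and 87.8 normalized counts in overexpression libraries, against 9.41, 2.88 and 17.5 in control libraries. Its control values spread widely at few reads, and the fold of 12.5 became 20.2-fold without control replicate 3. MP1, a protease of the melanization branch, averaged 557 ± 74.1 in overexpression and 138 ± 15.8 normalized counts in control (SD, n = 3 each), 4.04-fold higher. modSP, the modular protease at the head of the pattern recognition branch, averaged 128 ± 23.1 in overexpression and 30.3 ± 5.001 in control, 4.22-fold higher (SD, n = 3 each). Its follower grass averaged 401 ± 66.4 in overexpression and 111 ± 32.7 normalized counts in control, 3.60-fold higher (SD, n = 3 each). None of these 4 had groups that overlapped, as was so for 99.7% of all listed genes in overexpression.

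The rest of the cascade did not all rise. Of 29 genes of a Toll and melanization list, drawn up after values had been seen, 12 were listed in overexpression, 10 of them higher and 2 lower, where 72.4% of all listed genes were higher, and 4 in RNAi, all higher, where the share was 49.3%. Besides the members, easter (ea), another Spätzle-cutting protease, was 18.1-fold higher in overexpression and 4.51-fold higher in RNAi. The serpin genes nec and Spn77Ba, whose products restrain Toll signalling and melanization, were 10.6-fold and 2.28-fold higher in overexpression, and nec was 2.22-fold higher in RNAi. The Toll ligand gene spz was 2.84-fold lower in overexpression, at 55.6, 40.8 and 87.8 normalized counts against 187, 152 and 185 in control. Dif, encoding a transcription factor of the Toll pathway, was 2.41-fold lower in overexpression and 2.39-fold higher in RNAi. The 10 listed genes that were higher in overexpression encode proteases or serpins, and the other 17 genes of the list have no value there.

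Some markers of other cell types were listed too, and they were not the same in the altered genotypes. Of 10 hemocyte markers, 4 were listed in overexpression (NimC2, NimC3, NimC4 and srp), all higher, with a summed level of 937 to 1528 normalized counts in overexpression libraries against 224 to 317 in control libraries. In RNAi 1 of the 10 was listed, Ppn, and it was lower, at 479 to 666 normalized counts in RNAi libraries against 1647 to 2203 in control libraries. The other hemocyte markers have no value in RNAi. Of 9 fat body markers, Tsf1 was listed as higher in overexpression, at 21627 to 29576 in overexpression against 10820.1 to 11757 in control, and none was listed in RNAi. Of 8 glial markers, wrapper, Tret1-1 and nrv2 were listed in overexpression, all higher, with a sum of 10912 to 13935 in overexpression libraries against 4770 to 5222 in control libraries, and none was listed in RNAi. Of 4 tracheal markers, Gasp was lower in overexpression and higher in RNAi, while pio was higher in overexpression. Of 8 muscle markers, sls was lower and Zasp52 higher in RNAi, and Zasp66 was higher in overexpression. Of 4 gut markers, Mal-B2 was higher in overexpression and LysX higher in RNAi. No listed marker of these cell types was at 0 in a group. The part of such cells in the rise of the proteases was not tested.

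Inhibitors and binding proteins were higher in overexpression in 6 of 6 cases, again beside 72.4% of all listed genes. Timp (dm6 3R 10203875 to 10213007), the tissue inhibitor of metalloproteases, held 1412, 1570.5 and 1567 normalized counts in overexpression and 718, 603 and 503 in RNAi, against 110.2, 154 and 125 in control. It was 11.7-fold higher in overexpression and 4.68-fold higher in RNAi, with no overlap among the 3 groups, and the authors' deposited table gives adjusted p-values of 5.95e-50 in overexpression and 1.37e-19 in RNAi. Cys, a cystatin that inhibits cysteine proteases, held 5259, 8730.0 and 4657 in overexpression libraries against 554, 812 and 978 normalized counts in control libraries, 7.96-fold higher. CG17278 was 4.79-fold, the serpin genes Spn28Dc and Spn43Aa 3.26-fold and 2.83-fold, and PGRP-LF, a membrane protein that dampens the IMD immune pathway, 3.17-fold higher in overexpression. Spn43Aa had the widest spread of these genes in control, at 345, 1181 and 1679 normalized counts, below its overexpression values of 2071, 3284 and 3703.

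**Figure D3:**
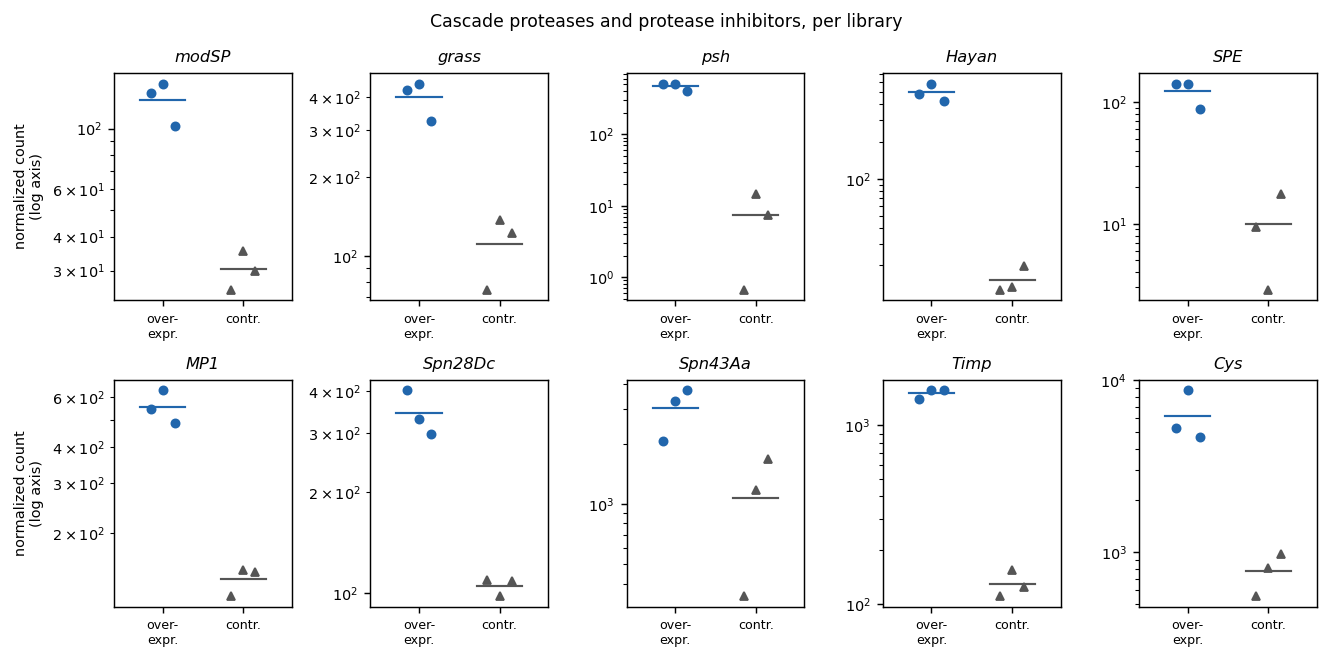
Normalized counts per library (log axis, own scale per gene) in overexpression (blue circles) and control (grey triangles) for the 6 cascade proteases and for the inhibitor genes Spn28Dc, Spn43Aa, Timp and Cys; horizontal lines are group means. Each overexpression library lies above each control library in all 10 panels, and psh has the widest gap. Groups did not overlap for 99.7% of all listed genes in overexpression.

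Other peptidases and lysozymes were higher in most of the comparisons that list them, beside 72.4% of all listed genes in overexpression and 49.3% in RNAi. Of 4 further serine proteases or homologues, 3 were listed in RNAi and 2 in overexpression, all higher. CG5390 is an abundant clip-domain serine protease homologue without a catalytic serine. It held 6413, 9248 and 5665 normalized counts in overexpression and 3733, 5095 and 3905 in RNAi, against 1321, 2115 and 2013 in control, 3.91-fold and 2.34-fold higher. Each altered library was above each control library. CG8586 held 61.4, 78.9 and 74.0 in RNAi against 14.1, 24.9 and 23.7 normalized counts in control, 3.41-fold higher, and CG3505 was 2.50-fold higher in RNAi. CG3355 was 3.79-fold higher in overexpression, at 31.0, 70.2 and 34.7 against 5.37, 23.0 and 7.48, and 7.05-fold higher without control replicate 2.

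Of the 6 other peptidase genes, 5 were listed in overexpression, all higher, where 72.4% of all listed genes were higher. In RNAi 2 were listed, 1 higher and 1 lower. CG6357, encoding a cathepsin L-like cysteine protease, was 3.02-fold higher in overexpression at 1226, 1815 and 2159.6 normalized counts and 2.57-fold higher in RNAi at 1009.7, 1634 and 1782, against 298, 687 and 736 in control. The zinc carboxypeptidase gene CG8539 was 4.18-fold higher in overexpression, the neprilysin-like gene CG14526 (now Nepl21) 3.50-fold (5.58-fold without control replicate 2), the aminopeptidase gene SP1029 2.45-fold and the asparaginase-like gene CG7860 2.34-fold. SP1029 was the most abundant of these, with 7936 ± 849.8 in overexpression and 3233 ± 140.4 normalized counts in control (SD, n = 3 each). CG4096, now AdamTS-B, encodes a secreted metalloprotease of the extracellular matrix and fell in RNAi, at 367, 314 and 326 against 845, 635 and 617 normalized counts, 2.08-fold lower. The 2 lysozyme genes rose in the comparisons that list them. LysX held 59.5, 160.2 and 93.5 in RNAi against 21.5, 19.2 and 27.4 normalized counts in control, 4.60-fold higher, but it belongs to a cluster of closely related genes, so its count is uncertain, and it is also a gut marker. CG6426, of the destabilase type, held 278, 575 and 292 in overexpression and 94.8, 99.5 and 163 in RNAi, against 23.5, 43.2 and 54.9 normalized counts in control, 9.42-fold and 2.94-fold higher.

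Purine enzymes of the set were higher wherever they were listed, beside 72.4% of all listed genes in overexpression and 49.3% in RNAi. ade2 and CG11089, the listed genes of a de novo purine list that are outside the set, were lower. Prat2 (dm6 3L 6911999 to 6914876) encodes one of the amidophosphoribosyltransferases that open de novo purine synthesis. It held 67.9, 82.5 and 58.7 normalized counts in RNAi libraries, against 1.34, 2.88 and 3.74 in control libraries. The control libraries were close to 0, so the log2 difference of 4.32 ± 0.31 depends on the added 1. The fold of 26.3, a ratio of means with nothing added, was the largest of the set in RNAi where the higher group averaged 20 normalized counts or more. NT5E-2, encoding an ecto-nucleotidase that releases nucleosides, held 668, 1056 and 779 in RNAi against 180.0, 203 and 193 normalized counts in control, 4.34-fold higher. Neither gene was listed in overexpression.

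In overexpression 3 other purine enzymes were higher. ade3, encoding the trifunctional GART enzyme, held 11009, 7319 and 7589.9 normalized counts in overexpression against 1346, 1293 and 1269.9 in control, 6.63-fold higher, with an adjusted p of 9.8e-29 in the authors' deposited table. ade5, for the carboxylase and SAICAR synthase steps, averaged 1644 ± 171 in overexpression and 624 ± 137 normalized counts in control, 2.63-fold higher (SD, n = 3 each). The IMP dehydrogenase gene ras, on the branch to guanine nucleotides, averaged 5248 ± 834 in overexpression and 2309 ± 231 normalized counts in control, 2.27-fold higher (SD, n = 3 each). None of these 3 had groups that overlapped, as was so for 99.7% of all listed genes in overexpression. The listed de novo purine genes outside the set fell instead. ade2, for FGAM synthase, was 4.84-fold lower in RNAi, at 940.0, 647 and 659.8 against 4124, 3536 and 3205 normalized counts. CG11089, for the last steps to IMP, was 12.8-fold lower in overexpression at 1373, 1361 and 875 and 2.39-fold lower in RNAi at 7764, 6477 and 5048, against 17536, 14797 and 13747 normalized counts in control. Of a list of 10 de novo purine genes, drawn up after values had been seen, 3 were higher and 1 lower in overexpression. In RNAi 1 was higher and 2 lower. Among all listed genes, 72.4% were higher in overexpression and 49.3% in RNAi.

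**Figure D4:**
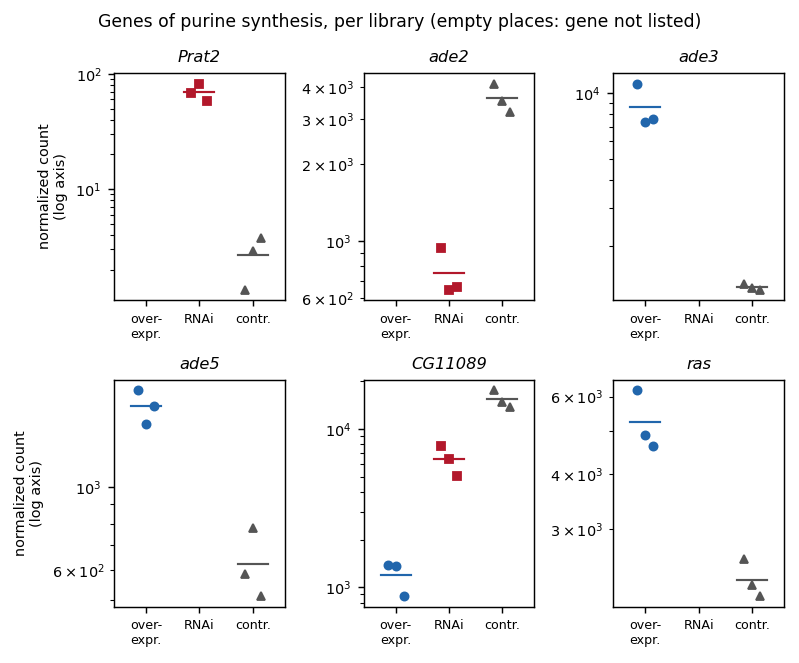
Normalized counts per library (log axis) for the purine enzyme genes Prat2, ade2, ade3, ade5, CG11089 and ras; blue circles are overexpression, red squares RNAi, grey triangles control, horizontal lines are group means, and a gene not listed in a comparison has no points there. Prat2 is above control in RNAi, ade3, ade5 and ras are above it in overexpression, ade2 is below it in RNAi, and CG11089 lies below control in both altered genotypes.

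Lipid and juvenile hormone enzymes were higher in 2 of 2 cases in overexpression and 4 of 4 in RNAi, beside 72.4% and 49.3% of all listed genes in these comparisons. CG9747 (dm6 3R 30185423 to 30191252) encodes a fatty acid desaturase and had the smallest adjusted p of the set in RNAi, 2.1e-43 in the authors' deposited table. It held 2623, 2120.4 and 1810.2 normalized counts in RNAi, against 222, 99.8 and 151 in control, 13.9-fold higher. The fatty acid elongase gene CG2781, now Elovl7, held 114, 81.3 and 190.5 in RNAi against 24.2, 37.4 and 36.2 normalized counts in control, 3.95-fold higher. RNAi replicate 3 was the highest of its libraries. CG14688, now Phyhd1, is related to phytanoyl-CoA dioxygenases and held 137, 213 and 135 in overexpression and 112, 193 and 179 in RNAi, against 45.7, 48.9 and 49.9 normalized counts in control. Its fold was 3.35 in each altered genotype. Jheh2, encoding a juvenile hormone epoxide hydrolase, was 2.82-fold higher in RNAi, with 180.2 ± 51.9 against 64.0 ± 11.0 normalized counts (SD, n = 3 each). CG5326, another elongase gene, was 5.59-fold higher in overexpression at few reads in control (10.1, 2.88 and 19.96 normalized counts) and 9.47-fold higher without control replicate 3.

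Of 7 enzymes of carbon and amino acid metabolism, 5 were higher and 2 lower in overexpression, a share close to the 72.4% higher among all listed genes, and of the 2 listed in RNAi 1 was higher and 1 lower. CG10924, now Pepck2, encodes a phosphoenolpyruvate carboxykinase of gluconeogenesis. It held 404, 321 and 427 normalized counts in overexpression and 2143, 2293 and 2255 in RNAi, against 831, 843 and 845 in control. It was thus 2.19-fold lower in overexpression and 2.66-fold higher in RNAi, and the 3 groups did not overlap. CAH2 (dm6 3L 12177601 to 12183347), encoding a carbonic anhydrase, went the other way, at 10719.9, 11012 and 9505 in overexpression and 787, 726 and 579 in RNAi, against 1669, 1502 and 1689 normalized counts in control. It was 6.43-fold higher in overexpression, with an adjusted p of 6.38e-43 in the authors' deposited table, and 2.32-fold lower in RNAi. A further carbonic anhydrase gene, CG3940 (now CAH7), was 3.69-fold higher in overexpression. Oat, for ornithine aminotransferase, was 3.75-fold, the aldehyde dehydrogenase gene CG9629 (now Aldh7A1) 3.52-fold and Glycogenin, which primes glycogen synthesis, 3.08-fold higher there. Ect3, a beta-galactosidase gene, fell in overexpression, at 824, 1461 and 875 against 2822, 2707 and 2378 normalized counts, 2.50-fold lower.

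Detoxification and cuticle enzymes were few. GstT4 (dm6 X 13404749 to 13409323), a theta-class glutathione transferase gene, had the largest fall of the set in RNAi, at 429, 705 and 628 normalized counts against 2361, 3172 and 3161 in control, 4.94-fold lower. All RNAi libraries lay below all control libraries. In overexpression GstO3, of the omega class, was 3.46-fold higher, with 2051 ± 637 against 594 ± 7.10 normalized counts (SD, n = 3 each). Of the glutathione transferases in the tables, including those outside the set, the 8 listed in overexpression were higher, beside 72.4% of all listed genes, and the 1 listed in RNAi was lower. Fmo-1, a flavin monooxygenase gene, held 67.4, 70.2 and 74.5 in overexpression against 2.02, 11.5 and 17.5 normalized counts in control, 6.84-fold higher and 10.4-fold higher without control replicate 3. Cda4, a chitin deacetylase gene, was 2.08-fold higher in RNAi, with 2663 ± 398 against 1280.5 ± 38.9 normalized counts (SD, n = 3 each).

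Genes of signalling and protein turnover split by direction. In RNAi all 3 listed were lower, beside 50.7% of all listed genes. In overexpression 4 of 7 were higher and 3 lower, beside 72.4% higher among all listed genes. The 3 listed in RNAi (cv-c, fj and Skp2) have a blank stage entry there and take their stage from overexpression. cv-c, encoding a RhoGAP, held 508, 186 and 530.0 normalized counts in overexpression and 349, 305 and 395 in RNAi, against 1316, 900.1 and 1022 in control, 2.64-fold and 3.09-fold lower. fj, encoding the Golgi kinase four-jointed of planar cell polarity, held 200.4, 93.1 and 156 in overexpression and 123, 129.9 and 133 in RNAi, against 391, 338 and 311 normalized counts in control, 2.31-fold and 2.70-fold lower. In both genes overexpression replicate 2 was the lowest library. Skp2 (dm6 3R 4334879 to 4337674), the F-box subunit of an SCF ubiquitin ligase, held 2541, 4270.0 and 3088 in overexpression and 521, 354 and 336 in RNAi, against 919, 1107 and 1057 normalized counts in control. It was 3.21-fold higher in overexpression and 2.55-fold lower in RNAi. Fbw5, another F-box gene, was lower in overexpression at 190.4, 194 and 185 against 376, 394 and 448 normalized counts, 2.14-fold lower. Enzymes of inositol signalling rose there: the kinase gene IP3K1 4.43-fold, the inositol monophosphatase gene CG17027 3.16-fold and the phosphoinositide phosphatase gene CG6707 2.42-fold.

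Of the 9 genes given no role, 4 of 8 were higher in overexpression, beside 72.4% of all listed genes. Both listed in RNAi were higher, beside 49.3%. CG4576 held 471, 859.9 and 524 normalized counts in overexpression and 415, 529 and 476 in RNAi, against 63.8, 40.3 and 52.4 in control, 11.8-fold and 9.07-fold higher. For RNAi the authors' deposited table gives it an adjusted p of 1.16e-33. It lies within rec on the opposite strand, and rec was listed as lower in RNAi. Whether reads were counted by strand is not stated in the labels. CG14118 held 531, 851 and 475 in overexpression against 40.3, 77.7 and 58.6 normalized counts in control, 10.5-fold higher. CG31777 and CG31778, which are neighbours, were 3.98-fold and 3.12-fold higher in overexpression. CG31683 had no read in any control library and 8.37, 23.1 and 15.3 normalized counts in RNAi, at least 17.3-fold higher against a floor of 3 reads over the control group.

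The 4 lower genes without a role were all listed in overexpression. CG10062 held 16.4, 11.5 and 37.8 normalized counts in overexpression against 102, 144 and 126 in control, 5.67-fold lower, and 8.90-fold lower without overexpression replicate 3. CG5321 was low in both groups, at 12.8, 11.5 and 16.3 against 35.6, 61.4 and 29.9, 3.13-fold lower. CG2269 held 681, 466 and 748 against 1882, 1739 and 1669 normalized counts, 2.79-fold lower, and firl 508, 566 and 412 against 1406, 1301 and 1341, 2.72-fold lower. These 4 genes had no overlap between groups, like 99.7% of all listed genes in overexpression.

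The 12 genes listed in both comparisons allowed overexpression and RNAi to be set against each other over 9 libraries. Of these, 7 were higher in both altered genotypes, 2 were lower in both, and 3 went opposite ways, against 22.3% opposite among the 179 genes listed in both. Since both comparisons use the same control libraries, a shared direction is no independent finding. In the direct test 7 of the 12 differed between overexpression and RNAi (limma, Benjamini-Hochberg adjusted over 179 genes), against 63.7% of the 179, with 6 higher in overexpression (37.4% of the 179) and 1 lower (26.3%).

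CAH2 differed most, with 10413 ± 799 normalized counts in overexpression and 697 ± 107 in RNAi (SD, n = 3 each), 14.9-fold higher in overexpression, a log2 difference of 3.91 ± 0.23 (limma, adjusted p = 8.48e-11). Skp2 was 8.17-fold higher in overexpression than in RNAi (log2 difference 3.02 ± 0.27, limma, adjusted p = 1.36e-08). CG10924 was 5.81-fold lower in overexpression than in RNAi (log2 difference -2.54 ± 0.23, limma, adjusted p = 2.06e-08). These 3 are the genes that moved in opposite directions against control. Each was listed beyond a log2 fold change of 1 both ways from the same control libraries, so the listing itself required a large direct difference. The direct test of these 3 is thus no independent evidence. Among genes that rose in both, Hayan was 4.05-fold, CG6426 3.20-fold and Timp 2.49-fold higher in overexpression than in RNAi, with limma adjusted p-values of 6.72e-06, 0.000662 and 0.000149. CG5390 was 1.67-fold higher (log2 difference 0.73 ± 0.27, limma, adjusted p = 0.0236), a call that was lost when RNAi replicate 1, RNAi replicate 3 or overexpression replicate 2 was left out, with adjusted p-values of 0.0666, 0.0644 and 0.101.

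For the other 5 genes the direct test did not pass, which does not show that overexpression and RNAi act alike. The 95% intervals of the log2 difference were -0.27 to 0.95 for CG4576, -0.49 to 0.96 for CG6357, -0.46 to 0.77 for fj, -0.64 to 0.81 for cv-c and -0.62 to 0.63 for CG14688. In each of these the libraries of overexpression and RNAi overlapped. Without overexpression replicate 2, the lowest library of cv-c, its difference passed at a log2 value of 0.58 (limma, adjusted p = 0.0497).

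**Figure D5:**
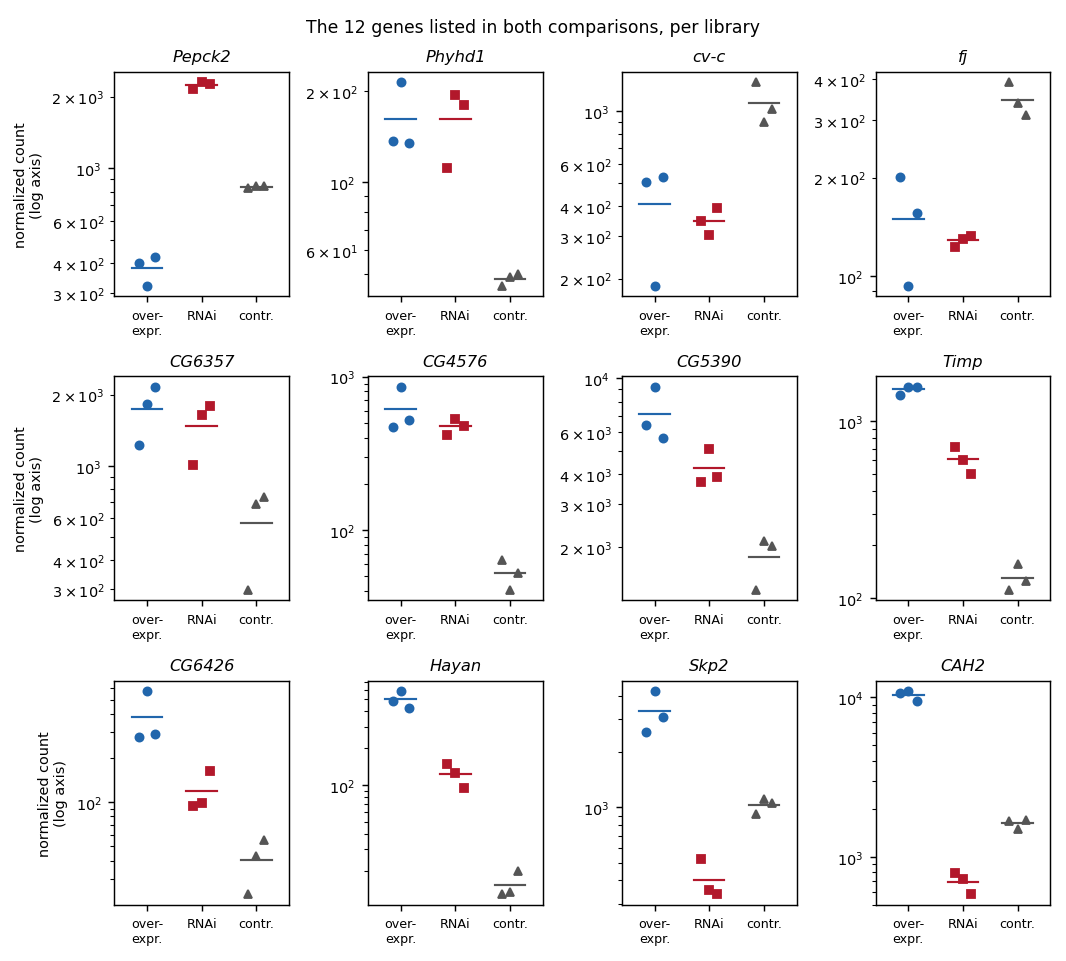
Normalized counts per library (log axis) for the 12 genes listed in both comparisons; blue circles are overexpression, red squares RNAi, grey triangles control, and horizontal lines are group means. CAH2 and Skp2 lie above control in overexpression and below it in RNAi, Pepck2 (CG10924) the reverse, and the other 9 lie on 1 side of control in both.

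The RNAi tables mark genes with a Blimp-1 site, and 6 of the 24 listed genes carried the mark, against 42.4% of all listed genes. These were CG9747, CG4576, CG2781, CG10924 and Cda4, which were higher, and cv-c, which was lower. A mark for Slbo, a C/EBP-type transcription factor, was given to 5 of the 24 (CG9747, CG2781, Timp, Cda4 and cv-c), against 34.3% of all listed genes. Hayan, Prat2 and GstT4, with large changes in RNAi, carried neither mark. The labels and tables do not say how the sites were found.

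The libraries within a group were not level for these genes. Among the 40 genes higher in overexpression, overexpression replicate 2 was the highest of its group for 27, as it was for 305 of all 514 higher genes, and control replicate 1 was the lowest control library for 25. Control replicate 1 was also the lowest for 15 of the 18 genes higher in RNAi. Its median log2 distance from the control mean was -0.21 over the 40 genes, against -0.12 over all 514, and -0.22 over the 18 genes, against -0.0054 over all 184. Blimp-1 itself held 23252, 9467 and 18277 normalized counts in overexpression replicates 1, 2 and 3, against 874, 888 and 748 in control, so the library with the lowest Blimp-1 level in overexpression was the highest for most of these genes. The RNAi tables do not list Blimp-1, so they do not show a fall of its RNA, and its level in RNAi libraries is not known here.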

How the data were processed

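The 9 libraries were made with a stranded mRNA kit from 250 ng of total RNA, per the labels' protocols. The submitters' processing notes name DESeq2, STAR 2.6.1d, Subread 1.6.3, Picard 2.18.20 and bedtools 2.26.0 and the build dm6, without saying what each was used for. Each of the 4 deposited tables holds the genes that moved 1 way in 1 altered genotype. The normalized counts in them are a signal made by the authors, with every library divided by its own size factor, as the deposited values themselves show: within 0.02 reads, 100% of nonzero values in each library were whole multiples of 1 step, which gives back whole reads. The deposited log2 fold changes ran control over altered genotype and were turned round, while the deposited adjusted p-values were used as they stand. Neither the number of genes tested nor the total depth is known.

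Normalized counts were fitted with limma 3.58.1 in R 4.3.3 as log2(value + 1) with a mean-variance trend, on the 373 genes listed in RNAi, the 710 in overexpression and, for the direct test, the 179 in both, with Benjamini-Hochberg adjustment over each table at 0.05 and no filter on low values. Since the authors had called all of these genes, limma's calls add no independent evidence. The fit was tested on simulated data. SDs are over 3 libraries; separate animals or pools per replicate are not described, so the spread may be partly technical. With 3 against 3 libraries an exact permutation test could not pass, so none was used. Recovered reads were also fitted with edgeR 4.0.16 and DESeq2 1.42.0. Genes were placed with Ensembl's BDGP6.54 annotation, which shares the coordinates of dm6; 60 of the 61 genes were placed, 24 overlap a gene on the other strand and 3 (SPE, ras and cv-c) a gene on the same strand, where counts can be shared.

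The genes, role groups and lists were chosen with earlier results of these data known. Values of all libraries are given, per comparison and direction, for the 10 largest changes where the higher group averaged 20 normalized counts or more, for the 4 smallest deposited adjusted p-values, and for the genes listed in both comparisons. Other genes are given with fewer values, and genes outside the set, as well as some per-library values of set genes, were chosen after their values were seen. Alternatives were pseudocounts of 0.5 and 4, a filter on means under 20 normalized counts, the count tests, a replicate block, leaving out each library, and function and stage taken from a comparison's own tables.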

Additional observations from a re-analysis of the deposited data

How the results depend on the processing

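Against control, the 73 fold changes of single genes kept their direction and stayed under the threshold in all 875 alternatives that gave a value. Limma called 100.0% of all listed genes in each comparison, so the listing made this outcome likely in advance. The counts of genes called stayed at 24 in RNAi and 49 in overexpression when any library was left out. With the filter on means under 20 normalized counts, 23 were called in RNAi and 49 in overexpression. With function and stage taken from the RNAi tables alone, 16 genes were higher and 2 lower in RNAi, and the median log2 fold change was 1.82 in place of 1.51. Leaving out a library gave medians of 1.36 to 1.70 in RNAi and 1.63 to 1.94 in overexpression. In the direct test, function and stage from each comparison's own tables left 6 genes, of which 4 were called in place of 7 of 12, all higher in overexpression; 0 were lower by limma, edgeR or DESeq2, and 0 were lower at an unadjusted p under 0.05. The number called in the direct test was 6 to 7 when a library was left out, with CG5390 the call that was lost.

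Of the direct differences that had not passed, some turned sign. The log2 difference of CG14688 was 0.0074, and it was -0.00078 with edgeR and -0.00088 with DESeq2. When a library was left out it ran from -0.24 to 0.16 for CG14688, from -0.088 to 0.46 for fj, from -0.016 to 0.47 for CG6357 and from -0.17 to 0.58 for cv-c.

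With the replicate number as a block, 24, 49 and 7 genes were called in RNAi, overexpression and the direct test, as without it, and it changed no call of a single gene. The correlations of deviations between libraries with the same number as the control were 0.33, 0.081 and 0.051 in RNAi and 0.42, 0.21 and -0.00078 in overexpression. Replicate 1 of RNAi and of overexpression correlated best with control replicate 1, but replicates 2 and 3 of each correlated best with another number. The numbers were thus not taken to pair the samples, and an effect shared by the replicate 1 libraries was not tested.

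The tables hold listed genes only, so the scaling of the libraries could not be computed again. Low control values limit the folds of psh, SPE, CG5326, Fmo-1, CG3355 and CG14526, and low overexpression values that of CG10062. These are the 7 folds that moved by more than 1.5 times when a single library was left out.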

Other observations

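Several of these genes lie beside other listed genes. In dm6, 22 pairs of a gene of the set and another listed gene were less than 10000 bases apart, 2 of them with both genes in the set. Of the 19 pairs listed in the same comparison, 14 had the same direction in every comparison they share and 5 had opposite directions in at least 1.

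On the X chromosome psh and Hayan lie 714 bases apart, and CG15046 lies 528 bases from psh on its other side, all on the minus strand. Hayan and CG15046 were higher in both altered genotypes, and psh was higher in overexpression. On 3L, CAH2 and Est-6, an esterase gene 5470 bases away, were both higher in overexpression and lower in RNAi. Cys and CG8066 were 255 bases apart on 3R and both higher in overexpression. PGRP-LF and PGRP-LC, which encodes a receptor of the IMD immune pathway, were 1272 bases apart on 3L and also both higher there. On 2R, the serpin gene Spn43Aa lies 4448 bases from Spn43Ad and 7187 bases from nec, and all 3 were higher in overexpression. CG6357 was 689 bases from CG6347, another cathepsin L-like gene, and both were higher in RNAi.

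Opposite neighbours included rec and CG4576, which overlap on opposite strands and were lower and higher in RNAi, and CG18190 and Jheh2, 2723 bases apart and also lower and higher in RNAi. In overexpression, CG2269 was lower and egr, 958 bases away, higher. Whether neighbours move together more often than other listed genes was not tested.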
